A study of Mus musculus with 6 samples.

Results

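Interferon-response genes outside the interferon-induced GTPase families were followed in lung ILC2s, the innate lymphocytes of type 2 immunity, which answer the alarm cytokine IL-33. The genes were taken from a list of 47 names, namely interferon receptors, STAT and IRF factors, nucleic acid sensors and antiviral effectors, and 46 of them had a column among the 17438 genes of the count table. Mx1, a dynamin-like GTPase, was not analysed here. RNA was sequenced from 3 Cd48 KO and 3 wild-type (WT) samples of ILC2s that had been purified from lungs by sorting and kept in culture. The KO samples carry the targeted allele B6.129S4-Cd48tm1Rsr/EpaulJ, whose name gives a 129S4 donor and a B6 background, and all 6 samples have the strain label CB57BL/6 and the treatment label IL-33. The allele is not restricted to a cell type by its name, and each library was made from 10 pg of RNA. The labels do not say whether samples came from separate animals, so the p-values cover sample-to-sample spread that may be technical.

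Interferons signal through surface receptors (Ifnar1 and Ifnar2 for type I, Ifngr1 and Ifngr2 for type II interferon) to the STAT proteins. STAT2 and IRF9 are parts of ISGF3, the complex that binds the interferon-stimulated response element (ISRE), whereas signalling by type II interferon acts mainly through the gamma-activated site (GAS). The induced genes encode sensors of foreign nucleic acid, enzymes and membrane proteins that block viral replication, and brakes such as USP18 that limit further signalling. Many of them are also kept at a low basal level in cells that have met no virus.

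Totals of deposited counts ran from 16135210 to 17600475 in the KO libraries and from 14928623 to 27450400 in the WT libraries. Cd48 itself was at 4.52, 5.59 and 4.4 CPM (counts brought to a common library size with TMM factors) in KO1, KO2 and KO3, against 58.2, 46.6 and 41.6 CPM in WT1, WT2 and WT3. The 16 ILC2 markers summed to 16000 to 16900 CPM in KO and 14400 to 19300 CPM in WT, and Il5 was the highest of them. Gata3 was between 780 and 1090 CPM in KO and between 1070 and 1420 CPM in WT. Thy1 was the lowest marker of the list, at 6.05 to 7.19 CPM in KO and 8.9 to 12.4 CPM in WT. WT1 stood apart: long transcripts were under-represented in it, with a median log2 CPM minus the mean of the other 5 libraries of -0.934 for transcripts of at least 8000 bases and 0.361 for those of 500 to 1000 bases. Each comparison is therefore given with all 6 libraries and without WT1. The common coefficient of biological variation was 0.109 without WT1 and 0.258 with it. Mitochondrial transcripts held 0.678% to 0.777% of counts in KO and 0.264% to 0.619% in WT, with the lowest share in WT1.

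Promoter sequence was available from RefSeq (GRCm38.p6) for 37 of the 46 genes, as windows from 250 bases before to 50 bases after an annotated start. The windows were searched for letters of the ISRE and GAS, in genes that had been listed for their response to interferon. The ISRE letters GAAANNGAAA, searched on both strands, occurred in 17 of 45 member windows (37.8%) and in 3.44% of all 32851 windows of that length. The GAS letters TTCNNNGAA, which read the same on both strands, occurred in 13 of 45 member windows (28.9%) and in 8.3% of all windows. Windows of 16 member genes held ISRE letters, among them those of Isg15, Ifit1, Ifit3, Rsad2, Oas1a, Oas3, Stat2, Bst2, Ifitm2 and Ifitm3. A match describes letters only and does not show that a factor binds. The 6 windows below belong to genes described further on: a gene with ISRE letters whose KO libraries all lay below WT (Isg15), one that was close to undetected (Ifit3), 2 neighbours that were higher in KO without WT1 (Ifitm2 and Ifitm3), and 2 factor genes with GAS letters (Irf1 and Irf8). Capitals mark ISRE or GAS letters, and each sequence runs 5′ to 3′ on the gene's own strand.
Isg15 (chr4:156200769-156201068, minus strand): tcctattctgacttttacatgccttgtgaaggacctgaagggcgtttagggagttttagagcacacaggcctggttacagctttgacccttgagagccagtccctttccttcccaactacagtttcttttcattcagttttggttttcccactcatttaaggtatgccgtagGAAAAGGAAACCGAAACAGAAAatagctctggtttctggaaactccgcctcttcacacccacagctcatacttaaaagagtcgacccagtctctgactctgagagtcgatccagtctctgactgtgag
Ifit3 (chr19:34583279-34583578, plus strand): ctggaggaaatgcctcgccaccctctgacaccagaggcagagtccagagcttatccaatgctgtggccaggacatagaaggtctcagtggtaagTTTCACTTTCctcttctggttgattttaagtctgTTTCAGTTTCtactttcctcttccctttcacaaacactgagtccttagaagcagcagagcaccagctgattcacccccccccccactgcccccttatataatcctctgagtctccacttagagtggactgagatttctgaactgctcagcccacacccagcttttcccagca
Ifitm2 (chr7:140955912-140956211, minus strand): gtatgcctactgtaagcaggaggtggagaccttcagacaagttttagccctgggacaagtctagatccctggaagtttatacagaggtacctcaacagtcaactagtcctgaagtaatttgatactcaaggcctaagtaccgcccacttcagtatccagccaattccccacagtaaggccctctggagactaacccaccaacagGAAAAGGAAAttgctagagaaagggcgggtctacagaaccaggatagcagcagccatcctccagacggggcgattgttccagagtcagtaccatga
Ifitm3 (chr7:141010695-141010994, minus strand): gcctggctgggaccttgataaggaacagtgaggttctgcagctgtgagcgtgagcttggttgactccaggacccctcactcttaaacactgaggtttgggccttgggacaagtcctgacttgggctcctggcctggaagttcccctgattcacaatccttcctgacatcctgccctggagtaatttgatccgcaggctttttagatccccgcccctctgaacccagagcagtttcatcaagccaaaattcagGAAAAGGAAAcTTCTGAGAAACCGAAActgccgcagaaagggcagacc
Irf1 (chr11:53769764-53770063, plus strand): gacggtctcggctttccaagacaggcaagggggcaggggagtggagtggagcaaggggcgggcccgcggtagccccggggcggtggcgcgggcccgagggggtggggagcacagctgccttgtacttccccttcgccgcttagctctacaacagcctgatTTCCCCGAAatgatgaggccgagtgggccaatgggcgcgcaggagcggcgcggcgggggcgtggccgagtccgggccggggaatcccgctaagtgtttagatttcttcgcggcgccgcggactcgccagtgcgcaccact
Irf8 (chr8:120736108-120736407, plus strand): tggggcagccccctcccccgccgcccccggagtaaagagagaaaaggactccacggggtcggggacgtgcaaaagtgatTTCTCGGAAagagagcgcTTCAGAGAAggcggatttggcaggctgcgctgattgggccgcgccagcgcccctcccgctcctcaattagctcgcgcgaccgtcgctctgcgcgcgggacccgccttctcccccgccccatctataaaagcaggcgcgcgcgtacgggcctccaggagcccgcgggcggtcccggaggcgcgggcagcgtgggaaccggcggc
In the Isg15 window 3 ISRE matches overlap one another, and their first bases lie 78, 72 and 66 bases before the start (-78, -72 and -66). In the Ifit3 window 2 separate ISRE matches lie on the opposite strand, at -156 and -122. The Ifitm2 and Ifitm3 windows each hold the same 10 letters, GAAAAGGAAA, at -46 and at 2 bases after the start base, which is also the first match in the Isg15 window. That stretch of Ifitm3 is followed by GAS letters at 13, which overlap a further ISRE match at 19. The Irf1 and Irf8 windows hold GAS letters only, at -90 in Irf1 and at -171 and -153 in Irf8. Of the genes with a window, 15 with ISRE letters were tested without WT1 and had a median log2 fold change (KO over WT) of -0.13. The 20 tested genes without these letters in the window had a median of -0.21.

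Before any comparison, the list ranged widely in level. Counted per kb of the longest annotated transcript and averaged over the 6 libraries, Ly6e, a GPI-anchored surface protein, stood highest at 696 CPM per kb. Ifi35 (76.7), Bst2 (72.5), Ifngr1 (69.4), Ifitm2 (58.1) and Sp100 (49.3) followed on the same scale. Several genes known for strong induction by type I interferon, but not all of them, lay at the other end. Ifit1 was at 0.424, Oasl1 at 0.292, Rsad2 at 0.291, Ifit3 at 0.179, Oasl2 at 0.121 and Oas2 at 0.0291 CPM per kb. Usp18, also induced, was at 6.62 CPM per kb. Isg15, a ubiquitin-like modifier, was at 3.76 CPM per kb and Irf7, the factor that amplifies type I interferon responses, at 3.67 CPM per kb.

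**Figure D1:**
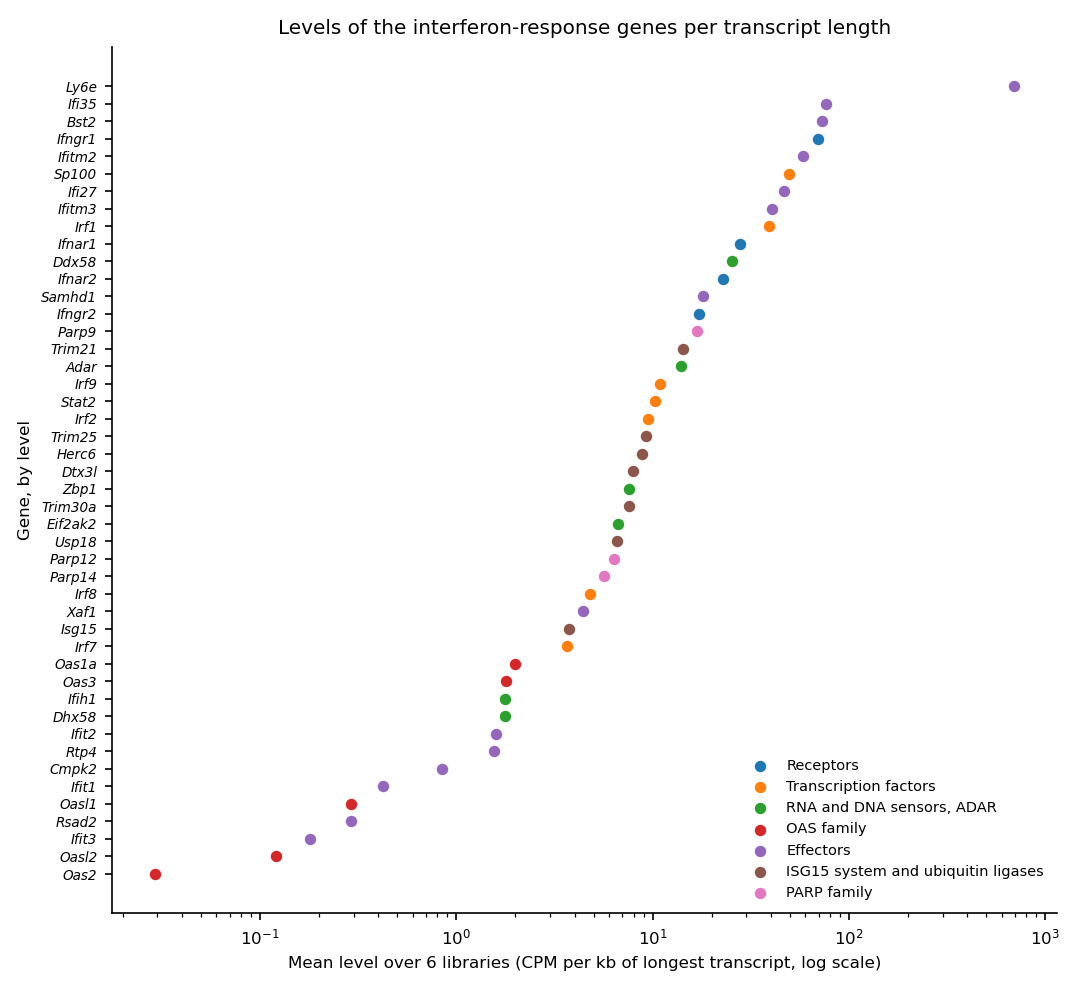
Mean level of each of the 46 genes over the 6 libraries, in CPM per kb of longest transcript on a log axis, coloured by role. Ly6e stands alone at the top at 696 CPM per kb, and Ifit1, Oasl1, Rsad2, Ifit3, Oasl2 and Oas2 are the 6 lowest, from 0.424 down to 0.0291 CPM per kb.

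KO was compared with WT to see which interferon-response transcripts differ in IL-33-treated ILC2s when CD48, a SLAM family surface protein, is disrupted. Most of the list differed little. With all 6 libraries 42 members passed the filter on low counts, and 0 of these passed the quasi-likelihood test of edgeR, with Benjamini-Hochberg (BH) adjustment over all tested genes, in either direction, against 0.015% of all 13317 genes called lower and 0.015% called higher. At an unadjusted p under 0.05, 9 members had a lower and 0 a higher level in KO, where 3.95% of all tested genes were lower and 2.94% higher. DESeq2 called 1 member, Rtp4, lower and 0 higher (background 0.39% and 0.421%). So did limma-voom when its samples were weighted for quality (background 0.33% and 0.383%). Without WT1, 43 members were tested and Rtp4 alone fell, with 0 members rising, against 0.652% of all 13643 genes called lower and 1.17% called higher. At an unadjusted p under 0.05, 13 members were then lower and 3 higher (background 5.6% and 8.07%). DESeq2 called 5 members lower, namely Irf8, Irf9, Samhd1, Rtp4 and Usp18, and 1 higher, Ifitm2 (background 1.12% and 1.9%).

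The direction of the small differences was mostly downward. Of the 42 members, 28 had a log2 fold change below 0, which held for 50.5% of all tested genes, and the median was -0.10, against -0.004 for all tested genes. In 12 members (28.6%) every KO library lay below every WT library, and in 2 (4.76%) every KO library lay above; over all tested genes these shares were 9.11% and 10.2%. The 12 were Stat2, Sp100, Zbp1, Samhd1, Cmpk2, Xaf1, Ifi27, Ifi35, Rtp4, Isg15, Usp18 and Parp12, and the 2 were Ifit2 and Trim30a. Without WT1, 33 of 43 members had a value below 0 (background 49.8%), with a median of -0.15. KO lay wholly below WT2 and WT3 in 18 members (41.9%, background 14.3%) and wholly above in 4 (9.30%, background 15.8%). The median deviation of the 42 members from their own mean over the libraries was -0.0013, -0.056 and -0.13 in KO1, KO2 and KO3, and 0.086, 0.11 and 0.14 in WT1, WT2 and WT3, on the log2 CPM scale.

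**Figure D2:**
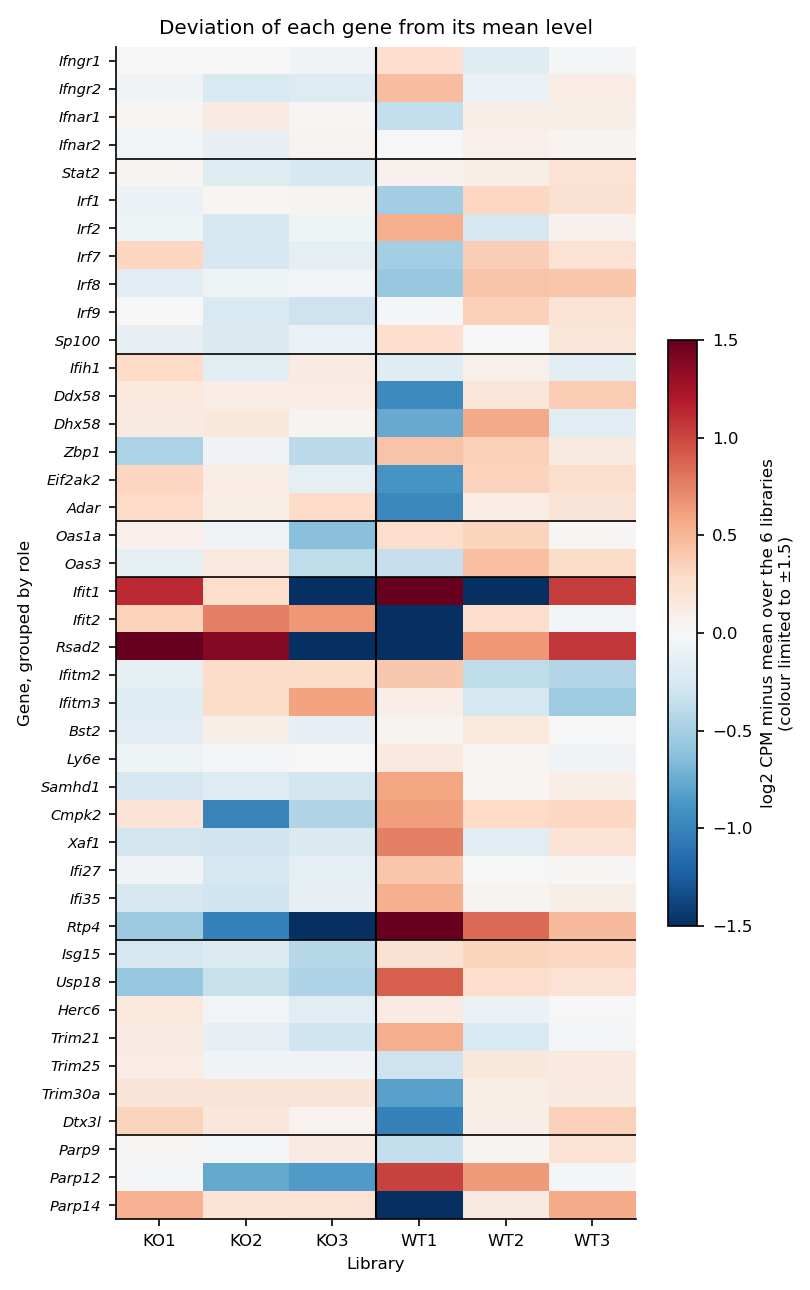
Log2 CPM of each of the 42 tested genes in each library minus its mean over the 6 libraries, genes grouped by role with lines between roles, red above and blue below the mean. In WT2 and WT3, 33 and 32 of the 42 genes lie above their mean, against 20, 17 and 15 in KO1, KO2 and KO3; WT1 has 24 above, with strong colours of both signs.

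**Figure D3:**
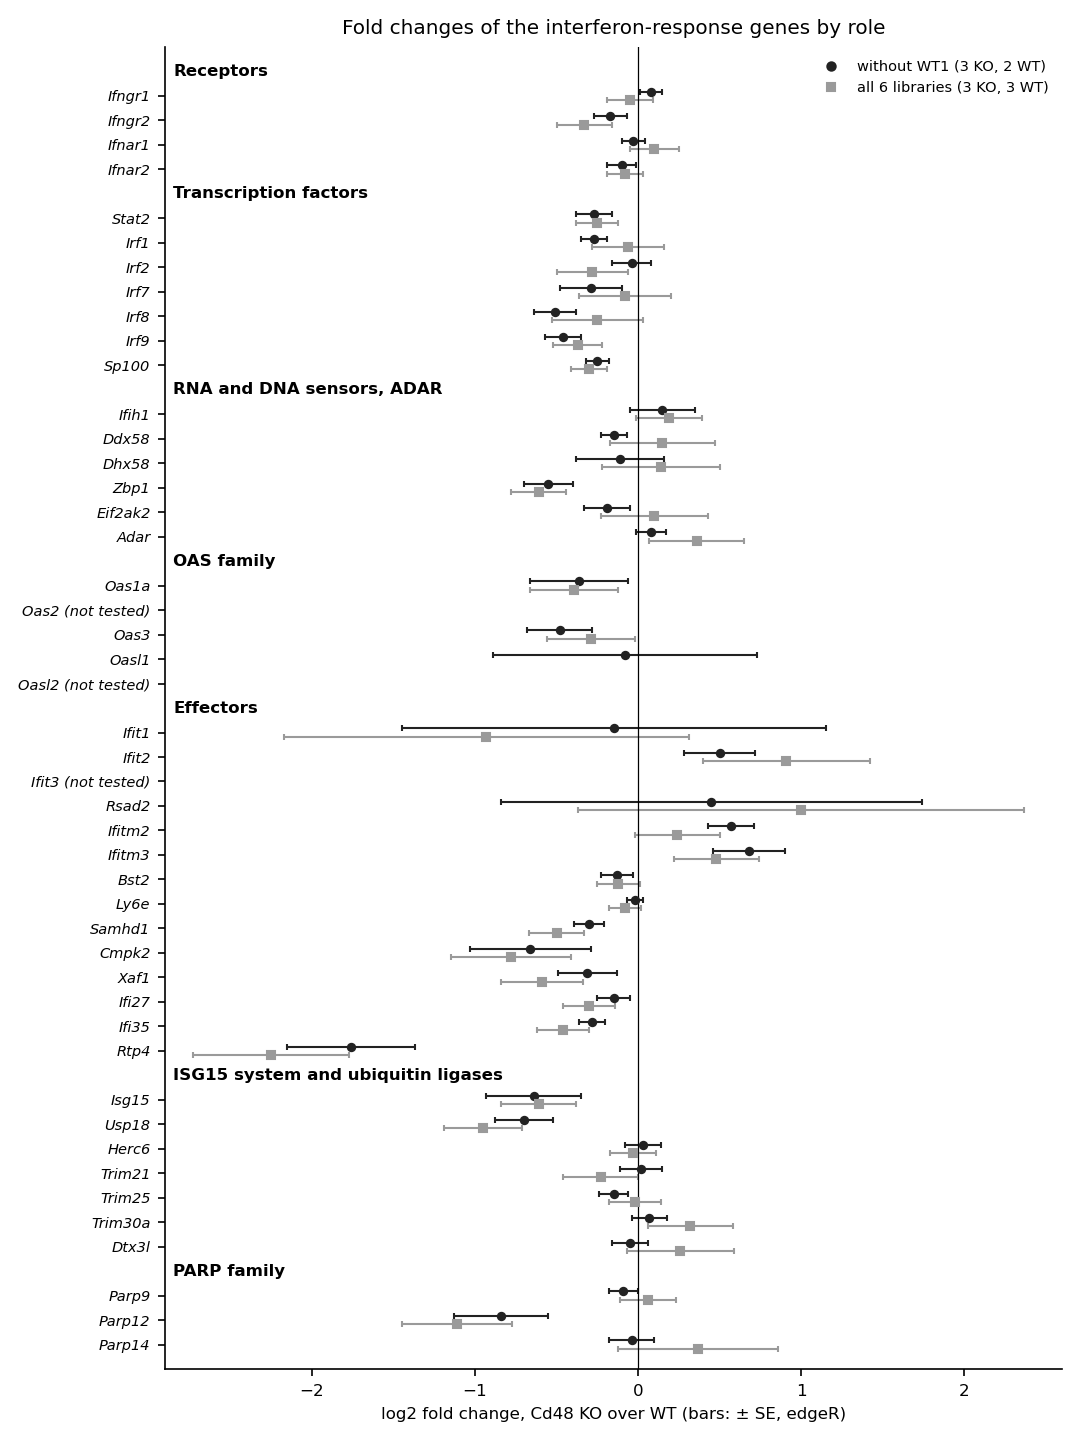
Log2 fold change of Cd48 KO over WT with its standard error (SE) for each gene by role, black circles without WT1 and grey squares with all 6 libraries. Most points lie close to 0, the bars of Ifit1, Rsad2 and Oasl1 are wide, and Rtp4 stands apart at -1.76 without WT1 and -2.25 with all 6 libraries.

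The 4 receptor genes did not pass the test in either comparison, and their groups overlapped with and without WT1. Ifngr1, the ligand-binding chain for interferon gamma, was at 146, 147 and 140 CPM in the KO libraries and at 174, 129 and 145 CPM in WT1, WT2 and WT3. Ifngr2, its signalling partner, was at 60.6, 53.8 and 54.9 CPM in KO and at 86.6, 58.8 and 68.2 CPM in WT. For Ifngr1 all KO values lay between WT2 and WT1, and for Ifngr2 only KO1 reached above the lowest WT library. Ifnar1 was at 111, 119 and 110 CPM in KO and at 84.1, 117 and 116 CPM in WT. Ifnar2 was at 67.1, 63.4 and 71.6 CPM in KO and at 69.6, 72.8 and 71.5 CPM in WT. Without WT1 the log2 fold changes of Ifngr1, Ifngr2, Ifnar1 and Ifnar2 were 0.08 (SE 0.07), -0.17 (SE 0.10), -0.03 (SE 0.07) and -0.10 (SE 0.09). Their edgeR adjusted p (BH) ran from 0.495 to 0.908, and 0 of the 4 had an unadjusted p under 0.05 in either comparison.

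All 7 transcription factor genes had log2 fold changes below 0 in both comparisons (background 50.5% with all 6 libraries and 49.8% without WT1). Their medians were -0.25 with all 6 libraries and -0.27 without WT1, and 0 of 7 passed edgeR's test. At an unadjusted p under 0.05, 2 of 7 were lower with all 6 libraries (background 3.95%) and 5 of 7 without WT1 (background 5.6%). Irf9, the DNA-binding part of ISGF3, was at 41.5, 35.4 and 33.4 CPM in KO and at 41.2, 53.1 and 48.0 CPM in WT. Only WT1 reached into the KO range. Its log2 fold change without WT1 was -0.46 (SE 0.11), with an edgeR adjusted p of 0.0645, and DESeq2 called it lower (adjusted p 0.0246). Stat2, the ISGF3 subunit that type I receptors activate, was at 46.5, 39.8 and 38.2 CPM in KO and at 47.3, 48.0 and 52.5 CPM in WT. The groups did not overlap, but KO1 and WT1 were close, and the log2 fold change was -0.25 (SE 0.13, adjusted p 0.690, edgeR). Irf9 overlaps the same-strand gene Rnf31 in the annotation, so the assignment of its reads is uncertain.

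Irf1, a factor that interferon gamma induces and that drives antigen presentation genes, was at 77.2, 84.2 and 84.8 CPM in KO and at 57.1, 102 and 96.7 CPM in WT. WT1 was the lowest library of all and WT2 and WT3 were the highest. The log2 fold change was -0.06 (SE 0.22) with all 6 libraries and -0.27 (SE 0.08, adjusted p 0.129, edgeR) without WT1. Irf8, a factor of myeloid and lymphoid development, followed the same pattern, at 14.5, 15.4 and 15.8 CPM in KO and at 10.9, 21.8 and 21.7 CPM in WT. DESeq2 called it lower without WT1 (log2 fold change -0.51, adjusted p 0.0402), whereas edgeR gave an adjusted p of 0.0862. Irf8 overlaps the same-strand gene Gm20388, so its count is uncertain too. Irf7 was at 14.5, 9.71 and 10.5 CPM in KO and at 8.10, 15 and 13.5 CPM in WT. KO1 lay above WT3 and WT1 below every KO library, and the log2 fold change was -0.29 (SE 0.19, adjusted p 0.552, edgeR) without WT1. Irf7 overlaps Phrf1 on the opposite strand, so its count is uncertain where strand was not used. Sp100, a nuclear body protein, was at 171, 160 and 173 CPM in KO and at 222, 188 and 212 CPM in WT. Every KO library lay below every WT library, with a log2 fold change of -0.30 (SE 0.11, adjusted p 0.690, edgeR). Sp100 is the only member on chromosome 1 and lies 86.0 Mb from Cd48. Irf2, an antagonist of Irf1, had a log2 fold change of -0.28 with all 6 libraries and -0.04 without WT1.

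Among the 6 sensor genes, which include the RNA editor Adar, Zbp1 alone had every KO library below every WT library. Zbp1, which binds Z-form nucleic acid and can start necroptosis, was at 17.5, 23.5 and 18.6 CPM in KO and at 33.0, 31.4 and 26.9 CPM in WT. The groups did not overlap, and the KO mean was 0.653 times the WT mean. Its log2 fold change was -0.61 (SE 0.17) with all 6 libraries and -0.55 (SE 0.15) without WT1, with edgeR adjusted p of 0.690 and 0.0982. The RNA helicase gene Ddx58 (RIG-I) was at 106, 102 and 103 CPM in KO and at 48.9, 107 and 124 CPM in WT. Adar was at 96.4, 84.2 and 96.6 CPM in KO and at 40.2, 85.0 and 89.8 CPM in WT. In both genes WT1 had less than any other library, and their log2 fold changes were 0.15 and 0.36 with all 6 libraries and -0.15 and 0.08 without WT1. Ifih1 (MDA5), Dhx58 (LGP2) and Eif2ak2 (PKR) had log2 fold changes of 0.15, -0.11 and -0.19 without WT1, and 0 of the 6 sensors passed edgeR's test in either comparison. Zbp1 alone had an unadjusted p under 0.05.

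The genes of the OAS family, some of whose products make the oligoadenylates that switch on RNase L, were low. Oas3, the most abundant of them by CPM, was at 7.45, 9.22 and 6.32 CPM in KO and at 6.49, 11.4 and 10.1 CPM in WT. KO lay below WT2 and WT3 but not below WT1. Oas1a had log2 fold changes of -0.39 (SE 0.27) with all 6 libraries and -0.36 (SE 0.30) without WT1. The log2 fold change of Oas3 was -0.48 (SE 0.20, adjusted p 0.313, edgeR) without WT1. Oas1a has close relatives, so the division of its reads is uncertain. Oas2 and Oasl2 did not pass the filter on low counts, and Oasl1 did so only without WT1. Oas2 had 0, 6 and 0 reads in KO1, KO2 and KO3 and 0, 0 and 9 reads in WT1, WT2 and WT3.

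Among the 14 effector genes Rtp4 fell. Rtp4, a Golgi chaperone of receptors that interferon induces, was at 1.40, 0.984 and 0.621 CPM in KO and at 7.54, 3.87 and 2.98 CPM in WT, from 23, 16 and 11 reads in KO and 108, 58 and 83 reads in WT. All 3 KO libraries lay below the lowest WT library. The means were 1.003 ± 0.392 CPM in KO and 4.797 ± 2.42 CPM in WT (SD, n = 3 each), so the KO mean was 0.209 times the WT mean. The log2 fold change was -1.76 (SE 0.39, adjusted p 0.0417, edgeR, BH) without WT1. With all 6 libraries it was -2.25 (SE 0.48), with an adjusted p of 0.623 in edgeR, 0.00729 in DESeq2 and 0.0462 in limma-voom with sample quality weights. The call without WT1 was lost when KO2, KO3, WT2 or WT3 was also left out (adjusted p 0.162, 0.166, 0.198 and 0.0917, edgeR, BH), with log2 fold changes from -1.95 to -1.51. Rtp4 (chr16:23520291-23614222, plus strand, GRCm38) overlaps Masp1 on the opposite strand and Gm45338 on its own strand, so its count is uncertain where reads of these could be counted.

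Ifitm2 and Ifitm3, neighbouring genes on chromosome 7 for membrane proteins that block the entry of viruses, differed the other way from most of the list when WT1 was left out. Ifitm2 was at 33.8, 44.8 and 45.0 CPM in KO and at 49.2, 28.3 and 27.2 CPM in WT. WT1 was the highest library, and WT2 and WT3 were the lowest. The log2 fold change was 0.24 (SE 0.26) with all 6 libraries and 0.57 (SE 0.14, adjusted p 0.0593, edgeR) without WT1, where DESeq2 called it higher (adjusted p 0.0146). Ifitm3 was at 23.3, 32.2 and 40.4 CPM in KO and at 28.5, 22 and 18.2 CPM in WT, with a log2 fold change of 0.68 (SE 0.22, adjusted p 0.222, edgeR) without WT1. KO1 was the lowest KO library in both genes. The 2 genes are close paralogs, so how reads were divided between them is uncertain, and Ifitm2 also overlaps Gm45717 on its own strand.

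Of the other effectors, Ly6e and Bst2 overlapped between groups, and Samhd1, Ifi35, Ifi27, Xaf1 and Cmpk2 had KO libraries wholly below WT. None of these passed edgeR's test in either comparison. Ly6e, the most abundant member, was at 1502, 1549 and 1587 CPM in KO and at 1750, 1608 and 1534 CPM in WT, with a log2 fold change of -0.02 (SE 0.05) without WT1. The groups overlapped. Samhd1, which hydrolyses deoxynucleotides, was at 57.7, 60.4 and 57.1 CPM in KO and at 104, 70.4 and 73.9 CPM in WT. Its groups did not overlap, and DESeq2 called it lower without WT1 (log2 fold change -0.30, adjusted p 0.0492, against 0.108 in edgeR). Ifi35, an interferon-induced leucine zipper protein, was at 87.1, 83.1 and 93.8 CPM in KO and at 148, 106 and 109 CPM in WT, again with no overlap. Its log2 fold change was -0.46 (SE 0.16) with all 6 libraries and -0.28 (SE 0.08, adjusted p 0.110, edgeR) without WT1. Bst2 (tetherin), which holds budding virus at the cell surface, had log2 fold changes of -0.12 with WT1 and -0.13 without it. Ifi27, Xaf1 and Cmpk2 had KO libraries wholly below WT, with log2 fold changes of -0.15, -0.31 and -0.66 without WT1, and edgeR adjusted p of 0.570, 0.507 and 0.477.

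Several inducible effectors were detected unevenly in both groups. Ifit1 had 25, 13 and 0 reads in KO1, KO2 and KO3 and 41, 2 and 40 reads in WT1, WT2 and WT3. Rsad2 (viperin), which makes a chain-terminating nucleotide, had 53, 28 and 0 reads in KO and 0, 15 and 38 reads in WT. KO3 had no read of either gene, while WT1 was the highest library in CPM for Ifit1 and had no read of Rsad2. A count of 0 allows up to 0.169 CPM in KO3 and 0.209 CPM in WT1, from a limit of 3 counts that covers counting error only. Ifit3 had 7, 4 and 1 reads in KO and 0, 8 and 17 reads in WT and was not tested. Ifit2 was higher than its relatives, at 6.66, 8.85 and 8.24 CPM in KO and at 1.26, 6.27 and 5.06 CPM in WT. Every KO library lay above every WT library, and the log2 fold change was 0.50 (SE 0.22, adjusted p 0.352, edgeR) without WT1 and 0.91 (SE 0.51) with it. For Ifit1 and Rsad2 the log2 fold changes were -0.15 (SE 1.30) and 0.45 (SE 1.29) without WT1, so no difference was detectable beyond the scatter between libraries.

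In the ISG15 system, the modifier and its protease were both lower in every KO library, while the ligase genes varied around 0. Isg15 was at 2.32, 2.40 and 2.03 CPM in KO and at 3.28, 3.54 and 3.48 CPM in WT. WT1 lay close to the other WT libraries here. The means were 2.25 ± 0.193 CPM in KO and 3.434 ± 0.134 CPM in WT (SD, n = 3 each), and the log2 fold change was -0.61 (SE 0.23, adjusted p 0.690, edgeR). Usp18, which removes ISG15 from proteins and restrains the type I receptor, was at 7.33, 8.67 and 7.90 CPM in KO and at 20.5, 13.2 and 12.7 CPM in WT. The KO mean was 0.515 times the WT mean, and 0.615 times that of WT2 and WT3. Its log2 fold change was -0.95 (SE 0.24, adjusted p 0.689, edgeR) with all 6 libraries and -0.70 (SE 0.18, adjusted p 0.0704) without WT1, where DESeq2 called it lower (adjusted p 0.0321). Herc6, the main ISG15 ligase of the mouse, had log2 fold changes of -0.03 with WT1 and 0.03 without it. The ubiquitin ligase genes Trim21, Trim25, Trim30a and Dtx3l had log2 fold changes of 0.02, -0.15, 0.07 and -0.05 without WT1, and 0 of the 7 genes passed edgeR's test in either comparison. Isg15 and Usp18 had an unadjusted p under 0.05 in both.

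**Figure D4:**
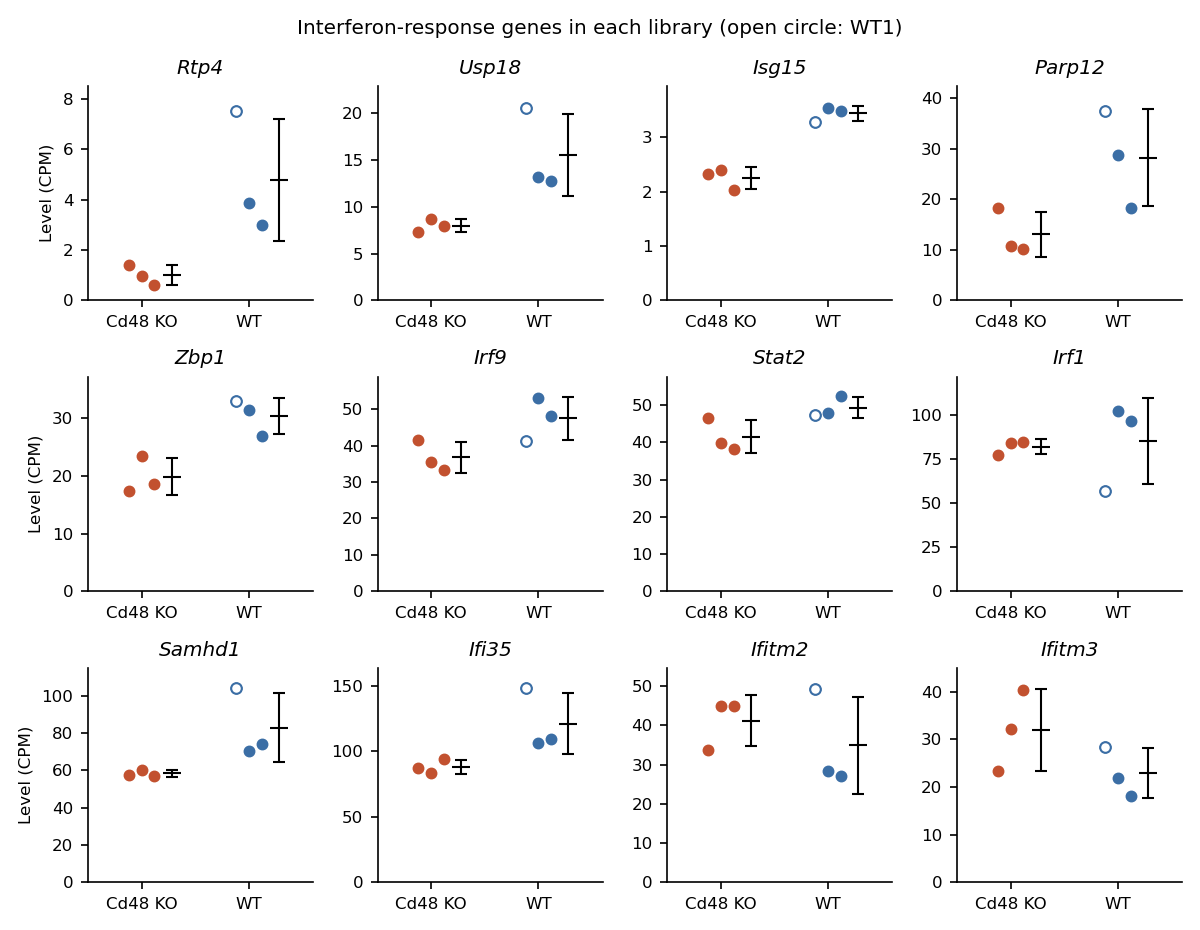
Level in CPM of 12 genes in each library, KO in red and WT in blue with WT1 as an open circle, and the mean ± SD of each group (n = 3) in black. Rtp4, Usp18, Isg15, Zbp1, Samhd1, Ifi35, Parp12 and Stat2 have all KO points below all WT points, while Irf9, Irf1, Ifitm2 and Ifitm3 overlap only with WT1 included.

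Of the PARP genes, Parp12 was lower in every KO library, at 18.2, 10.8 and 10.2 CPM, against 37.5, 28.8 and 18.3 CPM in WT. KO1 and WT3 were nearly equal. This ADP-ribosyltransferase gene had log2 fold changes of -1.11 (SE 0.34, adjusted p 0.690, edgeR) with all 6 libraries and -0.84 (SE 0.29, adjusted p 0.274) without WT1. Parp9 and Dtx3l, which encode partners in a ubiquitin ligase complex and overlap on opposite strands of chromosome 16, had log2 fold changes of -0.09 and -0.05 without WT1. Parp14, a macrodomain protein with the longest transcript of the list, was at 54.7, 43.9 and 44.0 CPM in KO and at 12.1, 41.7 and 55.8 CPM in WT. Its log2 fold change was 0.37 (SE 0.49) with WT1 and -0.04 (SE 0.14) without it. Irf8, Usp18, Zbp1, Samhd1, Ifitm2, Ifitm3, Ifit1, Ifit2, Ifit3, Rsad2, Oas2, Oas3, Parp12 and Parp14 are given per library because of their values, which were seen before they were chosen. In the annotation Ifnar2, Herc6 and Parp14 overlap a same-strand gene, and Irf1, Irf2, Sp100, Dhx58, Eif2ak2, Adar, Oas2, Oasl1, Ifi35 and Usp18 an opposite-strand gene, so their counts carry the same uncertainty.

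The place of WT1 in these values followed transcript length. Among the 42 members, WT1 lay below all other libraries in 15 and above all others in 17, and over all tested genes in 39.5% and 36.8%. The 10 members with transcripts of at least 4000 bases had a median of -0.92 for log2 CPM in WT1 minus the mean of WT2 and WT3. The 9 members under 2000 bases had a median of 0.46, and the 23 between these lengths 0.16. Spearman's rho of this difference with length was -0.55 over the 42 genes and -0.35 over all 13053 tested genes with a length, both of them across genes of the same 3 libraries. With all 6 libraries the median log2 fold change of KO over WT was 0.15 for the long group and -0.39 for the short group, and without WT1 it was -0.04 and -0.28. With a length trend fitted out of each library, the same test gave a median over all members of -0.16 both with all 6 libraries and without WT1.

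**Figure D5:**
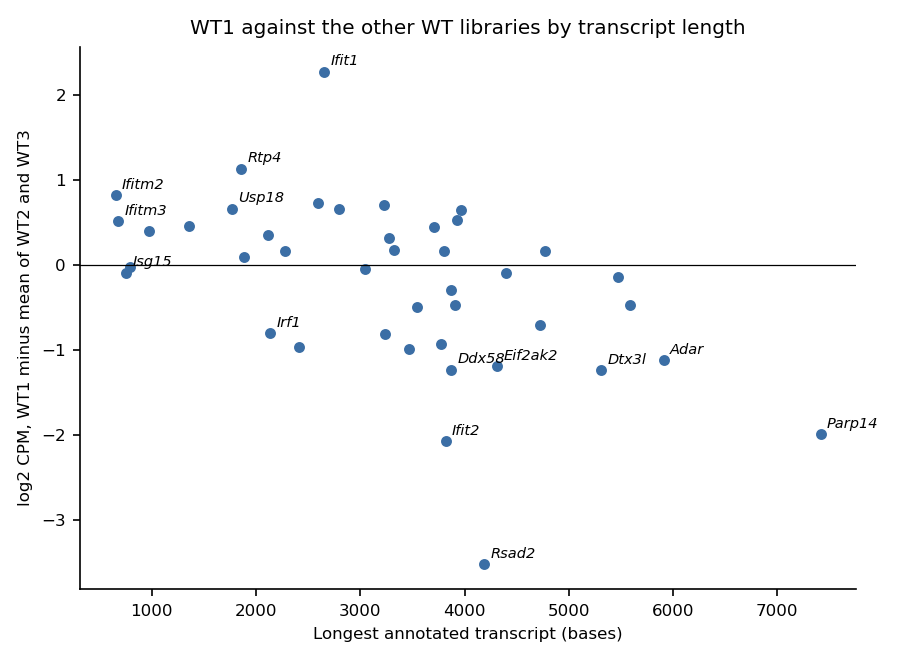
Log2 CPM in WT1 minus the mean of WT2 and WT3 for each of the 42 tested genes, against the length in bases of its longest annotated transcript. Long transcripts such as Parp14, Adar and Dtx3l lie below 0, and short ones such as Ifitm2 and Rtp4 lie above it.

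Other genes of the pathway were counted from 4 lists. Of 11 interferon ligand genes, 0 were analysed here. Of 10 tested genes of the steps that lead to interferon production, among them the DNA sensor Cgas, the adaptors Sting1 and Mavs and the factor Irf3, 0 rose and 0 fell in either comparison by edgeR or DESeq2, 0 had an unadjusted p under 0.05, with a median log2 fold change of -0.02 without WT1. Of 14 tested JAK-STAT genes and their brakes, 0 passed in either direction, with a median of 0.02 without WT1. At an unadjusted p under 0.05 only 1 was higher, without WT1 (background 8.07%). Of 50 further interferon-stimulated genes tested, 0 passed edgeR's test with all 6 libraries. DESeq2 there called 2 lower (background 0.39%), and limma-voom with quality weights called 1 lower (background 0.33%). Without WT1, 3 fell and 0 rose by edgeR (background 0.652% and 1.17%), with a median of -0.10. DESeq2 called 5 lower and 0 higher (background 1.12% and 1.9%). At an unadjusted p under 0.05, 7 were lower and 1 higher with all 6 libraries (background 3.95% and 2.94%). Without WT1, 15 were lower and 3 higher (background 5.6% and 8.07%). The 3 that fell by edgeR without WT1 were Isg20, an RNA exonuclease (-1.12, adjusted p 0.0277), the immunoproteasome subunit gene Psmb9 (-0.40, adjusted p 0.0300) and the peptide transporter gene Tap1 (-0.29, adjusted p 0.0345, all edgeR, BH). Isg20 was at 3.60, 4.98 and 5.25 CPM in KO and at 11, 8.94 and 11.1 CPM in WT, with no overlap.

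Transcripts of other cell types were low but were not the same in both groups. Of 8 T cell markers 4 were measured, and their summed level was 16.9 to 19.6 CPM in KO and 28.7 to 43.5 CPM in WT, most of it Cd3g. Of 6 lung epithelial markers 5 were measured, and they summed to 9.65 to 22.5 CPM in KO and 25.3 to 68.2 CPM in WT. Of 10 macrophage and monocyte markers 8 were measured, and they summed to 5.48 to 14.2 CPM in KO and 9.36 to 29.0 CPM in WT. Lyz2, the gene of this list with the highest mean, was at 1.47, 5.66 and 0.621 CPM in KO1, KO2 and KO3. In WT1, WT2 and WT3 Lyz2 was at 1.68, 14.0 and 16.8 CPM. Other single markers of this list differed in both directions. Mrc1, a macrophage receptor gene, had no read in any KO library or in WT1 and at most 0.754 CPM (WT3). Csf1r was highest in KO1, at 3.85 CPM, and Adgre1 was at 0.672 to 0.799 CPM in KO but 0 in WT3. B cell markers (2 of 5 measured) summed to 12.2 to 17.2 CPM in KO and 14.1 to 20 CPM in WT, dendritic markers (4 of 5, mostly Xcr1) to 51.7 to 58.3 CPM in KO and 58.4 to 67.2 CPM in WT, and endothelial markers (2 of 4, mostly Pecam1) to 40.1 to 41.9 CPM in KO and 29.1 to 40.2 CPM in WT. Zbtb46, Flt3 and Itgax, the other dendritic markers measured, reached at most 2.14 CPM (Zbtb46 in WT2). Beside Pecam1, Vwf reached at most 0.564 CPM, and beside Cd79b, Cd79a at most 0.279 CPM. Of the T cell markers beside Cd3g, Cd28 was highest at 4.06 CPM, in KO3. Sums that rest mostly on 1 gene do not show that such cells were present. The NK cell, neutrophil, mast cell and fibroblast lists reached at most 1.47 CPM in any library. The plasmacytoid dendritic cell list came to 74.4 to 84.2 CPM in KO and 78.6 to 95.0 CPM in WT, mostly from Bst2 and Irf8, which are members here. Fewer cells of a type and less RNA per cell cannot be told apart in such bulk samples. The part of any such cells in the lower values of Rtp4, Usp18, Isg15 and the other genes was not tested.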

How the data were processed

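RNA sequencing of 3 Cd48 KO and 3 WT samples was used, grouped by the sample titles. The authors deposited a table of estimated counts, which the values show to be unscaled, since library totals differ; 60.2% of non-zero values are whole within 0.001. Per the submitters' processing notes, STAR 2.7.8, Partek 10.0, DESeq2 and mm10 were used, in roles not stated; the counter, annotation and strand setting were not stated. Counts were rounded and tested in R 4.3.3 with edgeR 4.0.16 (robust quasi-likelihood fit, TMM, genotype as the only term, filterByExpr with minimum count 10 and total 15, BH adjustment over all tested genes, calls under 0.05). Standard errors were the log2 fold change over the root of F. CPM were scaled by TMM over the 6 libraries. GENCODE M21 (GRCm38) gave lengths and overlaps, with 17022 symbols matched (97.6%). DESeq2 1.42.0, limma 3.58.1, other size factors, filters and thresholds, a correction for length, a replicate block and leaving out each library were alternatives. The members, lists, the fit without WT1 and the rule for named genes were chosen with earlier results of these data known. That rule names members called in either fit, the 8 most abundant, Stat2, Irf9, Irf7, Irf1, Isg15 and the receptors. No 2 replicates agreed within sampling noise (chi-square per gene from 5.22 to 135). On simulated counts, 67 genes were changed 1.5-fold, 67 were changed 2-fold and 66 were changed 4-fold. Of these, 1.49%, 23.9% and 78.8% were recovered with all 6 libraries (13317 genes). Without WT1 (13643 genes) the shares were 44.8%, 83.6% and 95.5%. The changed genes were drawn only from genes above a minimum mean count, so the shares do not cover members with few reads. The length bias of WT1 was not simulated. The number of unchanged genes called was 5 with all 6 libraries and 22 without WT1. Those 22 are a larger share of the calls than the threshold of 0.05 aims at.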

Additional observations from a re-analysis of the deposited data

How the results depend on the processing

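With all 6 libraries the count of members called was 0 and became 1, Rtp4, with DESeq2 and with limma-voom with sample quality weights; leaving out 1 library gave 0 to 1, with the 1 reached without WT1. Over all 13317 genes tested with all 6 libraries, 4 were called, 108 with DESeq2 and 95 with sample quality weights. Without WT1, 248 of 13643 were called, 412 with DESeq2, 570 with the replicate block, 194 with limma-voom and 157 without the robust fit. The total was 230 of 13369 with the length trend removed and 517 of 13532 with KO1 also left out. Totals at an adjusted p of 0.1 are not given here. Without WT1 the count of members called was 1. It became 6 with DESeq2 and at an adjusted p of 0.1, 3 with the length trend removed, 5 with the replicate block, and 0 with limma-voom, a fit that was not robust or a filter at a mean of 10 CPM, which removes Rtp4; leaving out a further library gave 0 to 5, with 5 without KO1 and 0 without KO2, KO3, WT2 or WT3. The median log2 fold change of members with all 6 libraries, -0.10, became -0.16 with the length trend removed and -0.18 with sample quality weights, and ran from -0.17 to -0.08 with a library left out. Without WT1 it was -0.15, became -0.20 with sample quality weights and -0.21 with the replicate block, and ran from -0.23 to -0.12. These medians stayed below 0 in every alternative run, while 15 members with all 6 libraries and 11 without WT1 changed sign in at least 1 alternative, none of them called. The causes were not tested. Deviations of same-numbered samples from their group means did not go together (r from -0.0461 to -0.00911). The WT means include WT1, which differs widely from WT2 and WT3, so these values cannot show whether the numbers pair samples. In the block fit without WT1, KO1 has no partner and drops out. Ifit1, Rsad2, Oasl1 and Ifit3 rest on few reads that scatter widely between libraries, and Oas2, Oasl2 and Ifit3 were too low to test.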

Other observations

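Ifitm1, a relative of Ifitm2 and Ifitm3 outside the member list and chosen after its values were seen, was at 4.03, 7.07 and 7.73 CPM in KO and at 0.978, 3.07 and 2.87 CPM in WT, so that every KO library lay above every WT library. Its log2 fold change was 1.43 (SE 0.47, adjusted p 0.690) with all 6 libraries and 1.09 (SE 0.31, adjusted p 0.109) without WT1, and it did not pass edgeR's test in either. Slfn2, a Schlafen gene of lymphocytes also chosen after its values were seen, was at 145, 127 and 139 CPM in KO and at 194, 165 and 173 CPM in WT, with a log2 fold change of -0.30 (SE 0.07, adjusted p 0.0634, edgeR) without WT1.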
